A study of Danio rerio with 14 samples.

Results

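This account covers the response of ahrra-null zebrafish embryos to TCDD, chosen by label as the 4 libraries of ahrra-null embryos exposed to TCDD (replicates 13 to 16) against the 4 of ahrra-null embryos given carrier (replicates 9 to 12), together 8 of the 14 RNA-seq libraries of the series. The ahrra-null line was made with zinc finger nucleases, and both lines are labelled as of the Tupfel longfin strain. Embryos were placed at 6 h post-fertilization (hpf) for 1 h in 0.01% DMSO, the carrier, or in 2 nM TCDD, then rinsed, and their total RNA was taken at 72 hpf. The other 6 libraries, 3 of wild-type embryos with carrier and 3 with TCDD, serve here for the comparison of the lines. They were also part of the shared fit, so they enter the gene filter, the scaling and the spread behind the ahrra-null p-values. The number of embryos and the clutch behind a library are not given, so p-values measure only how far these samples spread, which may be technical.

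The aryl hydrocarbon receptor (AHR) is a transcription factor that moves to the nucleus when a ligand such as the dioxin TCDD binds it, pairs with ARNT and switches on genes of foreign-compound metabolism, the cytochrome P450 family 1 genes above all. Among its targets are its own repressors, ahrra and ahrrb in zebrafish, which compete with the receptor and so form a feedback loop. In fish embryos dioxin is known for damage to the heart, the jaw and the circulation.

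The 4 carrier libraries held 18.7 to 22.7 M (mega) counts and the 4 TCDD libraries 16.9 to 18.1 M, so every TCDD library had fewer. Of 32105 listed genes, 21606 were expressed enough to test. Values below are CPM (counts scaled to library size), given in the order of replicates 9 to 12 with carrier and 13 to 16 with TCDD. Log2 fold changes are given ± SE with the Benjamini-Hochberg adjusted p of edgeR's quasi-likelihood test over all tested genes, and a gene was called at an adjusted p under 0.05. Where a call did not hold in all of 15 alternative analyses (other scalings, filters and tests, and each of the 8 libraries left out), the number in which it was lost follows its value. In all 12 pairs of replicates the counts differed beyond sampling noise (chi-square over its degrees of freedom 2.72 to 9.08), so none looked like a repeat count of the same library. This measure cannot tell separate libraries of a shared RNA sample from libraries of different embryos. On the first principal component of these 8 libraries, with 26.3% of the variance, the carrier libraries lay between -18.9 and -7.78 and the TCDD libraries at 23.04, 15.9, 4.04 and 18.1. On this component the library closest to the carrier group, TCDD replicate 15, stood apart from the other 3. The second component held 16.22% of the variance, with TCDD replicates 13 to 16 at 22.99, -4.254, -15.23 and -16.36. There replicate 13 stood apart, and replicate 15 lay beside replicate 16. Of the 157 called genes chosen for description, 146 were also called without replicate 15. The largest rises and falls were chosen only where called without it, and some genes because they lost the call. The 146 is thus partly set by the choice. Of all 254 calls, 230 were also made without it. Of the 157, 137 had a larger log2 fold change without it, the change being 0.892 to 1.28 times that with it (5.45 in ahrra, -2.14 in ccl34b.1). RNA came from embryos, and 62 of 62 genes on the list of skeletal muscle, 34 of 35 on that of erythroid cells, 58 of 60 on that of photoreceptors and 42 of 44 on that of liver were expressed enough to test.

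Transcript of the targeted gene, ahrra (ENSDARG00000099702), was present in the ahrra-null libraries. It measured 1.09, 1.42, 0.879 and 1.19 CPM with carrier and 44.8, 54.5, 21.1 and 52.1 CPM with TCDD, a log2 fold change of 5.23 ± 0.38, adjusted p = 5.43e-05. All 4 TCDD libraries lay far above the carrier libraries, replicate 15 lowest. The labels used here do not say where the nuclease cut, and a frameshift can leave the transcript level as it was, so the genotype label is not checked by these values.

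TCDD changed 254 genes in ahrra-null embryos, 1.18% of those tested. It raised 176 of them (0.815%) and lowered 78 (0.361%). These shares over all tested genes stand beside the counts of calls in each list below. Changes of at least 2-fold were mostly rises, 40 against 4 falls. In 238 of the 254 genes no carrier library overlapped a TCDD library, as against 5.89% of all tested genes. The genes were called on these same libraries, so this separation is no added evidence for the calls. Without replicate 15 the count was 374, with 237 higher (1.1%) and 137 lower (0.635%), of which 230 were also called with it. Leaving out another library lowered the count, and by over 1.5 times in 5 cases: to 158 without carrier replicate 11, 167 without carrier replicate 12, 141 without TCDD replicate 13, 148 without TCDD replicate 14 and 149 without TCDD replicate 16. The median log2 fold change over all tested genes was 0.00.

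The cytochrome P450 family 1 genes, whose enzymes oxidize aromatic compounds and steroids, were among the largest rises. CYP1A1 (ENSDARG00000098315), the usual readout of AHR activity, measured 4.78, 4.36, 3.35 and 3.75 CPM with carrier and 1057, 1103, 465 and 1094 CPM with TCDD, a log2 fold change of 7.83 ± 0.37, adjusted p = 1.87e-06. Replicates 13, 14 and 16 lay close together, and replicate 15 stood at 42.9% of their mean while still far above any carrier library. For cyp1c1 (ENSDARG00000101195) the levels were 11.7, 10.8, 9.72 and 10.8 CPM and 421, 407, 216 and 387 CPM (log2 fold change 5.05 ± 0.22, adjusted p = 1.34e-06). The related cyp1c2 (ENSDARG00000101789) went from 3.26, 2.47, 2.69 and 2.84 CPM to 92.4, 87.7, 39.9 and 84.6 CPM (4.75 ± 0.30, adjusted p = 1.89e-05). In both, replicate 15 was again the lowest TCDD library, at 53.2% and 45.3% of the mean of the other 3. CYP1B1 (ENSDARG00000068934) measured 5.91, 5.57, 5.44 and 4.44 CPM and 37.9, 38.5, 17.2 and 38.5 CPM (2.63 ± 0.27, adjusted p = 0.000657), with replicate 15 at 44.97% of the others. A family member that is not known as TCDD-inducible in zebrafish, cyp1d1 (ENSDARG00000035569), measured 10.6, 10.9, 11.3 and 12.1 CPM and 11.7, 10.6, 11.2 and 9.70 CPM, and its groups overlapped (-0.05 ± 0.09, adjusted p = 0.886).

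**Figure D1:**
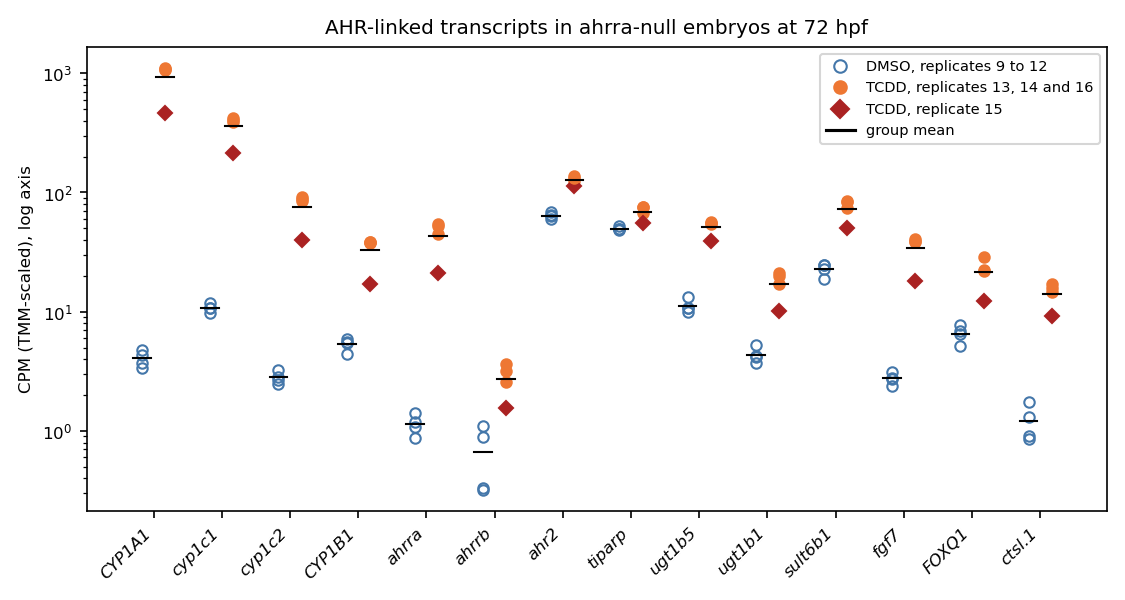
AHR-linked transcripts in ahrra-null embryos at 72 hpf, in TMM-scaled CPM on a log axis. Open circles are the 4 carrier libraries, filled circles TCDD replicates 13, 14 and 16, the diamond TCDD replicate 15, and the bar the mean of each group of 4. In CYP1A1 replicate 15 stood at 465 CPM and the other TCDD libraries at 1057 to 1103 CPM, with all carrier libraries under 5 CPM.

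Of the receptors, ahr2 (ENSDARG00000021833), the form through which most TCDD toxicity in zebrafish runs, rose from 68.1, 64.8, 60.3 and 63.0 CPM to 138, 125, 113 and 132 CPM (0.99 ± 0.06, adjusted p = 3.21e-10). Every TCDD library lay above every carrier library, and replicate 15 at 85.5% of the other 3 was closer to them than in the family 1 genes. The other receptor genes were not called: ahr1b (ENSDARG00000023537) measured 42.8, 47.8, 45.8 and 39.27 CPM and 38.9, 44.8, 46.3 and 44.5 CPM, and ahr1a (ENSDARG00000020046) 2.79, 1.84, 2.53 and 2.56 CPM and 1.76, 1.83, 2.56 and 2.74 CPM. Their groups overlapped. Among 19 tested genes of receptors and partners ahr2 was the only call, and the median log2 fold change was -0.01. The paralog of the targeted gene, ahrrb (ENSDARG00000052618), measured 0.331, 0.894, 1.099 and 0.320 CPM with carrier and 2.56, 3.17, 1.57 and 3.63 CPM with TCDD (2.08 ± 0.33, adjusted p = 0.00256), so the transcripts of both repressors rose in this line. The feedback enzyme tiparp (ENSDARG00000061841), which marks the receptor with ADP-ribose, measured 49.5, 49.0, 48.0 and 52.5 CPM and 67.7, 74.8, 55.2 and 76.0 CPM (0.46 ± 0.09, adjusted p = 0.0216, lost in 7 of 15). Without replicate 15 the log2 fold change of tiparp was 0.54 ± 0.08, adjusted p = 0.000186.

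Over the list of 26 AHR target genes, 15 rose, 1 fell and the median log2 fold change was 0.88. The list was written from known targets and related genes, among them cyp1d1 and both SOX9 genes. Earlier results of these data were in view, so its direction is no independent evidence. Besides those above, the rises covered conjugating enzymes, transcription factors and a growth factor. ugt1b5 (ENSDARG00000089507), a UDP-glucuronosyltransferase, measured 10.7, 13.2, 9.89 and 10.7 CPM and 54.2, 56.5, 39.5 and 55.7 CPM (2.21 ± 0.10, adjusted p = 3.21e-10). fgf7 (ENSDARG00000059387), a growth factor that acts on epithelia, went from 3.12, 2.37, 2.80 and 2.75 CPM to 38.8, 40.8, 18.1 and 38.4 CPM (3.62 ± 0.28, adjusted p = 6.08e-05). In both genes the groups were far apart with replicate 15 lowest under TCDD, at 46.1% of the other 3 in fgf7. FOXQ1 (ENSDARG00000030896), a forkhead transcription factor, measured 6.86, 6.52, 5.16 and 7.69 CPM and 22.0, 22.3, 12.3 and 29.0 CPM (1.70 ± 0.23, adjusted p = 0.00374). The sulfotransferase sult6b1 (ENSDARG00000086826) measured 24.6, 18.9, 22.8 and 24.7 CPM and 84.4, 82.9, 49.9 and 74.1 CPM (1.68 ± 0.16, adjusted p = 0.000305). Smaller rises were seen in both genes for Nrf2, the regulator of antioxidant genes: nfe2l2b (ENSDARG00000089697) by 0.85 ± 0.14, adjusted p = 0.00167 and NFE2L2 (ENSDARG00000042824) by 0.49 ± 0.10, adjusted p = 0.029, lost in 6 of 15. The glutathione transferase gstp1.2 (ENSDARG00000104068) rose by 0.42 ± 0.09, adjusted p = 0.0205, lost in 5 of 15. The fall was in SOX9 (ENSDARG00000043923), described with the cartilage genes below.

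Without replicate 15 the list counted 17 rises and the same single fall, with a median of 0.94, and leaving out any other library gave 12 to 14 rises. The 2 added calls were wfikkn1 (ENSDARG00000101364), at 1.79 ± 0.42, adjusted p = 0.0272 without that library, and SLC16A9 (ENSDARG00000104687), a monocarboxylate transporter family gene, at 0.47 ± 0.09, adjusted p = 0.0108. Over all alternatives their adjusted p reached 0.468 in wfikkn1 and 0.2099 in SLC16A9. In wfikkn1 the levels were 0.426, 0.105, 0.330 and 0.275 CPM and 1.54, 1.00, 0.291 and 0.476 CPM, so that replicate 15 lay among the carrier libraries. Not called with or without it were foxq1b, NQO1, gstp1.1, UGT1A1, mid1ip1a, cyp1d1, the other SOX9 gene (ENSDARG00000003293) and the other SLC16A9 gene (ENSDARG00000013926), with log2 fold changes between -0.05 and 0.90. NQO1 (ENSDARG00000010250), a quinone reductase that AHR and Nrf2 induce in mammals, measured 27.5, 23.4, 24.7 and 25.5 CPM and 35.4, 29.1, 28.6 and 25.5 CPM (0.23 ± 0.08, adjusted p = 0.217).

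The weaker response of replicate 15 was not limited to the AHR targets. For each TCDD library, genes were called without it, and its own log2 change from the carrier mean was set against that of the other 3 libraries. At the 237 genes that rose without replicate 15, it showed a median of 54.3% of the change in the other 3, and 227 of them lay below 100%. At the 137 genes that fell, the median was 38.9%, with 133 below 100%. Genes chosen without a library favour the other 3, so the same was done for each library in turn. The others gave 115%, 106% and 103% for rises (replicates 13, 14 and 16) and 77.2%, 95.4% and 104% for falls. For these libraries the other 3 included replicate 15, whose smaller changes raised their percentages, so the contrast with replicate 15 is widened. The genes also differed, with 98, 109 and 119 rises and 43, 39 and 30 falls. On the linear CPM scale, added after the data were seen, replicate 15 reached 46.3% for rises and 43.9% for falls. Its total count, 16.9 M, was equal to that of replicate 16 to the same digits. The labels give it the same exposure as the other 3, and the difference had no replicate of its own to test it.

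**Figure D2:**
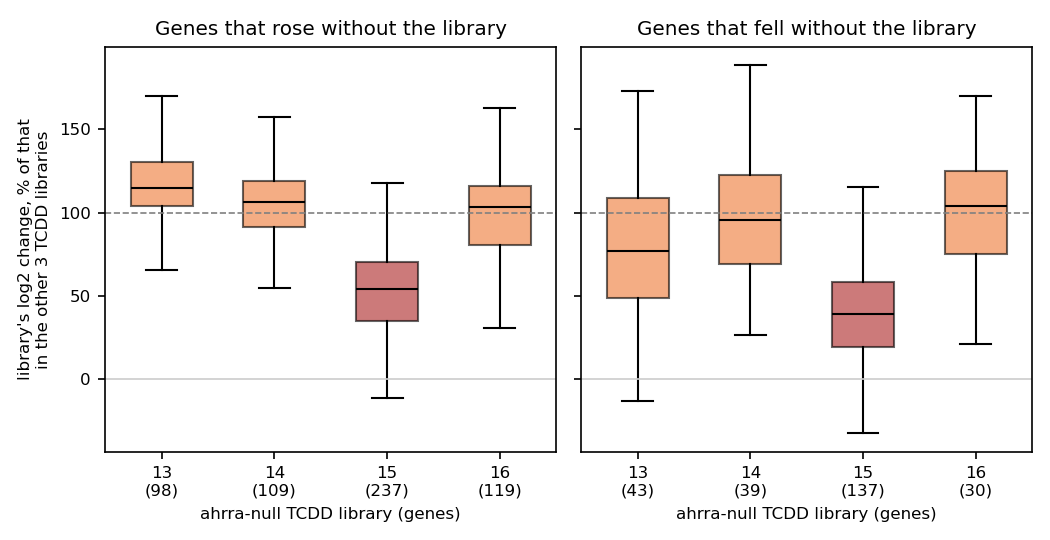
Response of each ahrra-null TCDD library, as its log2 change from the carrier mean in percent of that in the other 3 TCDD libraries, at genes called without it (number of genes in brackets). Boxes show the quartiles, bars the median, and whiskers the farthest value within 1.5 times the box height, with points beyond left out. Replicate 15 has its median at 54.3% for rises and 38.9% for falls, the others at 77.2% or more. The others are set against libraries that include replicate 15.

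Which genes pass the test depends on this library. Of the 254 calls 24 were lost without it, and 144 others were gained. The 5 losses with the smallest adjusted p were znf800b, CENPX, RPA3, srsf2b and ENSDARG00000076357, with log2 fold changes of 0.45, -0.52, -0.37, -0.31 and -0.40, and without replicate 15 these were 0.43, -0.50, -0.36, -0.30 and -0.36. Each of these calls was lost in 6 to 8 of the 15 alternatives. Among the gains, IGFBP7 (ENSDARG00000104138), which encodes a secreted growth factor binding protein, measured 36.9, 32.6, 37.2 and 40.0 CPM and 48.8, 49.7, 37.3 and 49.5 CPM. The chemokine gene ccl44 (ENSDARG00000074772) measured 7.10, 5.31, 6.21 and 6.27 CPM and 9.73, 9.39, 6.05 and 10.8 CPM. In both, replicate 15 alone among the TCDD libraries lay within the carrier range. Both were chosen as calls gained without replicate 15, so this place follows in part from the choice. The log2 fold change without replicate 15 was 0.42 ± 0.07, adjusted p = 0.00093 in IGFBP7 and 0.67 ± 0.11, adjusted p = 0.00099 in ccl44. Over the 15 alternatives the adjusted p of IGFBP7 reached 0.192 and that of ccl44 0.244, both without TCDD replicate 16. MEGF6 (ENSDARG00000079199), GCHFR (ENSDARG00000098588) and si:ch211-229d2.5 (ENSDARG00000079119) were the next gains, by 0.89, 0.76 and 1.12 without replicate 15.

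Among conjugating enzymes outside the AHR list, ugt1b1 was the only call. On the list of 46 phase II genes 4 rose and none fell, with a median of 0.11; 3 of the 4 (ugt1b5, sult6b1 and gstp1.2) are also on the AHR list. The fourth, ugt1b1 (ENSDARG00000097491), a further UDP-glucuronosyltransferase, measured 4.16, 3.73, 4.23 and 5.22 CPM and 19.8, 20.9, 10.23 and 17.2 CPM (1.97 ± 0.20, adjusted p = 8.73e-05). The groups did not overlap, but reads of near-identical copies within this gene family may have been split or lost in counting. Of 36 cytochrome P450 genes outside family 1, 2 rose and none fell. CYP24A1 (ENSDARG00000103277), which breaks down active vitamin D, measured 3.501, 2.94, 1.87 and 3.52 CPM and 7.91, 8.61, 4.36 and 11.07 CPM (1.42 ± 0.26, adjusted p = 0.0158, lost in 4 of 15). Replicate 15 was the lowest and replicate 16 the highest TCDD library, and a fit of these 8 libraries alone was among the analyses that lost the call. cyp3c1 (ENSDARG00000015575) rose by 0.44 ± 0.09, adjusted p = 0.0151, lost in 3 of 15. Neither was called without TCDD replicate 13, and 1 of them without carrier replicate 10, 11 or 12 or TCDD replicate 14. Of 46 tested genes on the list of Nrf2 and thiol antioxidants, the Nrf2 genes nfe2l2b and NFE2L2 were the only calls, and the median was 0.02. A single library left out (any of carrier replicates 10 to 12, TCDD replicate 13 or 14) reduced them to 1.

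Chemokine genes moved both ways: of 26 tested, 5 rose and 3 fell. cxcl19 (ENSDARG00000102776), a chemokine ligand gene, had 2, 0, 0 and 2 reads in the carrier libraries and 20, 35, 21 and 26 with TCDD, a log2 fold change of 4.71 ± 0.50, adjusted p = 3.06e-06 whose size rests on few reads. The receptor gene CCR9 (ENSDARG00000055186) measured 0.284, 0.420, 0.549 and 0.412 CPM and 1.65, 2.33, 1.104 and 1.31 CPM (1.95 ± 0.30, adjusted p = 0.000644). All 4 TCDD libraries were above the carrier libraries in both. CXCR4 (ENSDARG00000057633), the receptor of CXCL12, measured 1.89, 2.94, 2.42 and 2.84 CPM and 5.69, 6.17, 4.59 and 5.95 CPM (1.15 ± 0.15, adjusted p = 4.38e-05), and the scavenging receptors ACKR4 (ENSDARG00000040133) and ACKR3 (ENSDARG00000058179) rose by 0.75 ± 0.14, adjusted p = 0.00312 and by 0.26 ± 0.05, adjusted p = 0.00959, lost in 1 of 15. The CXCL12 ligand genes went down. cxcl12b (ENSDARG00000055100) measured 49.6, 49.9, 56.4 and 45.3 CPM with carrier and 26.4, 25.5, 35.3 and 25.4 CPM with TCDD (-0.84 ± 0.11, adjusted p = 0.000624). The related gene listed as CXCL12 (ENSDARG00000037116) measured 80.2, 80.8, 79.6 and 79.9 CPM and 67.3, 61.0, 71.2 and 60.0 CPM (-0.30 ± 0.06, adjusted p = 0.00372). Replicate 15 was the TCDD library nearest to the carrier group in both. ccl34b.1 (ENSDARG00000093608), a ligand gene, fell furthest, from 4.64, 3.26, 3.46 and 3.75 CPM to 1.02, 0.833, 1.98 and 0.714 CPM (-1.73 ± 0.22, adjusted p = 6.08e-05), and had the largest fall among the genes named by the rule.

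Some protease genes rose: 7 of 46 tested on the list of cathepsins and matrix proteases were higher and none lower, with a median of 0.06. Leaving out 1 library gave 4 to 8 higher, the lowest count without carrier replicate 11 or TCDD replicate 13. ctsl.1 (ENSDARG00000003902), a cathepsin L gene, measured 0.851, 1.73, 1.32 and 0.915 CPM and 17.2, 15.8, 9.18 and 14.6 CPM (3.57 ± 0.26, adjusted p = 4.37e-06). Every TCDD library exceeded every carrier library, replicate 15 least. The collagenase mmp13a (ENSDARG00000012395) rose by 1.15 ± 0.25, adjusted p = 0.0179, lost in 5 of 15, the gelatinases MMP9 (ENSDARG00000042816) by 0.85 ± 0.15, adjusted p = 0.00195 and MMP2 (ENSDARG00000017676) by 0.24 ± 0.06, adjusted p = 0.0369, lost in 5 of 15, and the membrane-bound MMP14 (ENSDARG00000002235) by 0.41 ± 0.06, adjusted p = 0.000351. The cathepsin S family genes ctss2.1 (ENSDARG00000074656) and ctss2.2 (ENSDARG00000013771) rose by 1.54 ± 0.29, adjusted p = 0.00881, lost in 1 of 15 and by 0.90 ± 0.20, adjusted p = 0.0241, lost in 3 of 15. Cathepsin S is abundant in macrophages, and beside these rises the list of 29 tested neutrophil and macrophage genes had 3 higher and 1 lower, with a median of 0.12 (1 higher without carrier replicate 11 or TCDD replicate 13) and library medians of -0.02 to 0.02 with carrier and -0.02 to 0.15 with TCDD. MPEG1 (ENSDARG00000055290), a macrophage perforin, rose by 0.71 ± 0.15, adjusted p = 0.0153, lost in 3 of 15, and MFAP4 (ENSDARG00000088745), which marks macrophages in zebrafish, measured 2.03, 2.68, 2.75 and 1.83 CPM and 1.42, 0.833, 1.34 and 1.37 CPM (-0.89 ± 0.21, adjusted p = 0.0293, lost in 5 of 15). The part of macrophage number in the protease values was not tested. In such bulk RNA, fewer cells of a type and less RNA per cell cannot be told apart.

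On the list of 30 tested interferon and acute phase genes 2 rose and 1 fell. ifitm1 (ENSDARG00000093303), an interferon-induced membrane protein gene, measured 1.23, 0.736, 0.714 and 0.915 CPM and 6.03, 4.05, 2.96 and 5.60 CPM (2.35 ± 0.34, adjusted p = 0.00208), and SOCS3 (ENSDARG00000026611), a feedback inhibitor of cytokine receptors, rose by 0.34 ± 0.07, adjusted p = 0.00573. The fall, in lgals9l1 (ENSDARG00000025903, -0.70 ± 0.17, adjusted p = 0.0476, lost in 11 of 15), was not called when any of the 8 libraries was left out. anpepla (ENSDARG00000089706) was also among the 15 largest rises, from 1.09, 1.104, 0.769 and 1.098 CPM to 2.90, 3.83, 2.5 and 2.5 CPM (1.52 ± 0.20, adjusted p = 8.91e-05).

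The most significant fall was in a cartilage regulator. SOX9 (ENSDARG00000043923), a transcription factor that cartilage formation needs, measured 48.1, 44.3, 39.33 and 47.8 CPM with carrier and 22.5, 26.3, 30.1 and 24.9 CPM with TCDD (-0.79 ± 0.08, adjusted p = 1.32e-06). No library overlapped, and replicate 15 was again nearest to the carrier group. The other gene of that symbol (ENSDARG00000003293) measured 28.9, 29.7, 29.9 and 29.1 CPM and 28.5, 32.05, 31.6 and 34.05 CPM and was not called. On the jaw cartilage list of 42 genes 4 rose and this SOX9 gene fell, with a median of -0.04. Those that rose encode matrix proteins or regulators. MATN4 (ENSDARG00000015947), a matrilin of cartilage matrix, measured 480.5, 481, 471 and 473 CPM and 686, 708, 609 and 679.6 CPM (0.49 ± 0.06, adjusted p = 1.73e-05), and RUNX3 (ENSDARG00000052826), a transcription factor, 11.6, 10.7, 12.1 and 10.9 CPM and 14.9, 14.6, 14.8 and 15.1 CPM (0.39 ± 0.08, adjusted p = 0.00752). ucmaa (ENSDARG00000027799) and fibromodulin, FMOD (ENSDARG00000044895), rose by 1.09 ± 0.22, adjusted p = 0.00807 and by 0.26 ± 0.06, adjusted p = 0.0168, lost in 4 of 15. Without replicate 15 the list held 4 rises and 4 falls, and without carrier replicate 10 it held 2 falls. On the list of 24 bone and dermal matrix genes, BMP4 (ENSDARG00000019995), a growth factor of bone formation, and COL12A1 (ENSDARG00000078322), a fibril-associated collagen, rose, the latter by 0.27 ± 0.06, adjusted p = 0.0151, lost in 4 of 15, and BMP4 alone was called without carrier replicate 10 or 11 or TCDD replicate 13 or 14.

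Retinoid genes were called in both directions, 3 falls and 2 rises of 59. LRAT (ENSDARG00000037278), which esterifies retinol for storage, measured 12.02, 11.09, 10.6 and 10.5 CPM with carrier and 5.92, 5.39, 7.56 and 6.01 CPM with TCDD (-0.83 ± 0.10, adjusted p = 3.89e-05). STRA6 (ENSDARG00000051874), the cell-surface receptor that takes up retinol, measured 38.9, 34.9, 35.3 and 36.5 CPM and 24.5, 26.7, 31.7 and 28.8 CPM (-0.38 ± 0.07, adjusted p = 0.00228), and the retinol binding protein gene rbp5 (ENSDARG00000101481) 56.5, 54.4, 52.3 and 53.5 CPM and 42.1, 41.9, 46.4 and 42.0 CPM (-0.33 ± 0.06, adjusted p = 0.00167). These 3 genes of retinol uptake, binding and storage fell in all 4 TCDD libraries. The rises were in CRABP2 (ENSDARG00000073978), a retinoic acid binding protein, by 0.29 ± 0.06, adjusted p = 0.0178, lost in 4 of 15, and BCO1 (ENSDARG00000104256), which cleaves carotene to retinal, by 0.40 ± 0.09, adjusted p = 0.0294, lost in 6 of 15. The rises numbered 0 without carrier replicate 10 or TCDD replicate 13 or 14 and 1 without carrier replicates 9, 11 or 12 or TCDD replicate 16, while falls stayed at 3 or 4 with each library left out.

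Genes of DNA replication and mitosis were lower in the TCDD libraries as a list. Of 86 tested, 84 had negative log2 fold changes, 10 were called lower and none higher, and the median was -0.23; over all tested genes 10527 of 21606 were negative. TPX2 (ENSDARG00000078654), a spindle assembly factor, measured 58.5, 57.8, 57.9 and 61.1 CPM and 43.5, 48.3, 52.5 and 45.6 CPM (-0.31 ± 0.06, adjusted p = 0.00881). PRIM1 (ENSDARG00000040163), the catalytic subunit of primase, measured 19.2, 17.2, 17.4 and 21.1 CPM and 13.8, 15.5, 15.5 and 13.5 CPM (-0.37 ± 0.08, adjusted p = 0.0143, lost in 3 of 15). The groups did not overlap in either gene, though the difference was 1.24-fold in TPX2. The other called members were the spindle motor kif11 (-0.31, lost in 5 of 15), the checkpoint genes TTK (-0.34, lost in 4 of 15), BUB3 (-0.32, lost in 5 of 15) and MAD2L1 (-0.37, lost in 7 of 15), the mitotic kinase plk1 (-0.27, lost in 6 of 15), the helicase subunit MCM5 (-0.26, lost in 6 of 15), the ribonucleotide reductase subunit RRM1 (-0.28, lost in 7 of 15) and the kinetochore gene ndc80 (-0.34, lost in 7 of 15), each with its log2 fold change. Only TPX2 of the 10 kept its call in every alternative. The count depends on single libraries: 26 lower without TCDD replicate 15 and 17 without carrier replicate 9, but 5 without TCDD replicate 14, 3 without carrier replicate 11, and 1 without carrier replicate 12, TCDD replicate 13 or TCDD replicate 16, while the median stayed between -0.28 and -0.18.

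The carrier libraries also differed among themselves on this list. Set against the carrier mean, the list's median difference on the log2(CPM + 0.5) scale was -0.10, -0.05, 0.03 and 0.11 in carrier replicates 9 to 12 and -0.30, -0.22, -0.10 and -0.25 in TCDD replicates 13 to 16, so that carrier replicate 9 and TCDD replicate 15 were level. Over the same carrier libraries the photoreceptor list, genes of a cell type that matures at this age, ran the other way, from 0.35 and 0.03 to -0.06 and -0.34, and in the TCDD libraries stood at 0.25, -0.09, -0.13 and 0.06. The photoreceptor list had no call in 58 genes and a median fold change of 0.00 on the log2 scale. With 1 library left out that median ran from -0.10 to 0.14, and 1 gene was called lower without carrier replicate 9 or 11. The part of these differences between libraries in the lower levels of the replication genes was not tested. Other called genes with roles in cell division, chosen after their values were seen, were the centromere gene cenpk (-0.59, lost in 2 of 15), the kinase PBK (-0.38, lost in 3 of 15), the transcription factor E2F8 (-0.43, lost in 6 of 15), atad5a (-0.32, lost in 6 of 15) and KPNA2 (-0.31, lost in 7 of 15), each log2 fold change negative. CDKN1B (ENSDARG00000029018), the cyclin-dependent kinase inhibitor p27, measured 44.0, 44.2, 41.7 and 48.8 CPM and 77.1, 78.5, 58.8 and 74.5 CPM (0.69 ± 0.07, adjusted p = 8.13e-06). It rose in all 4 TCDD libraries and kept its call in every alternative, and is among the list of 33 p53 and apoptosis genes, where GADD45B (ENSDARG00000027744), a stress-response gene, was the only fall, at -0.52 ± 0.09, adjusted p = 0.00456, and CDKN1B the only rise.

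**Figure D3:**
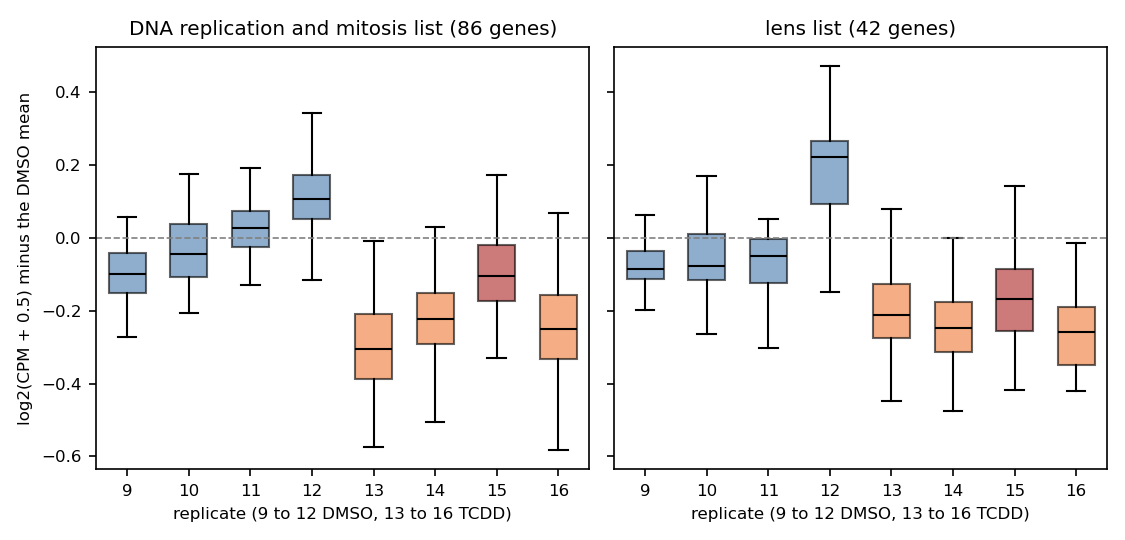
Genes of 2 lists in each ahrra-null library, as log2(CPM + 0.5) minus the mean of the 4 carrier libraries. Boxes show quartiles over the genes of a list, bars the median, whiskers the farthest value within 1.5 times the box height, and blue, orange and red mark carrier, TCDD and TCDD replicate 15. The replication list has its median at -0.10 in carrier replicate 9 and TCDD replicate 15 alike, and the lens list at 0.22 in carrier replicate 12, with the other carrier libraries below 0.

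Lens genes were lower too: 39 of 42 were negative, 4 were called lower and none higher, and the median was -0.24. BFSP1 (ENSDARG00000074919), a beaded filament protein of lens fibre cells, measured 10.5, 10.1, 9.997 and 13.2 CPM and 5.01, 7.39, 6.86 and 5.18 CPM (-0.85 ± 0.18, adjusted p = 0.0329, lost in 7 of 15). LCTL (ENSDARG00000016337), a lens-expressed klotho family gene, measured 7.28, 7.10, 7.63 and 7.92 CPM and 3.53, 4.28, 6.34 and 4.05 CPM (-0.72 ± 0.14, adjusted p = 0.00557). The other gene of that symbol (ENSDARG00000036139) was called lower without TCDD replicate 15 but not with it. The lens water channel genes, both listed as MIP, fell by 0.31 (ENSDARG00000013963) and by 0.27 (ENSDARG00000037285, call lost in 3 of 15). In all 4 called genes of the list the groups did not overlap. Carrier replicate 12 held the highest lens values, with a list median of 0.22 above the carrier mean against -0.09, -0.08 and -0.05 in the other carrier libraries and -0.21, -0.25, -0.17 and -0.26 with TCDD. Without it the list's median fold change was -0.15, with 3 lower, and without TCDD replicate 15 it was -0.24, with 8 lower. There were 8 lower also without carrier replicate 9, and 2 without carrier replicate 11 or TCDD replicate 13. Crystallin genes of the crygm2d cluster that were called, chosen after their values were seen, were crygm2d11 (-0.34, lost in 7 of 15), crygm2d14 (-0.35, lost in 1 of 15), crygm2d15 (-0.26, lost in 3 of 15), crygm2d17 (-0.31, lost in 2 of 15) and crygm2d18 (-0.30, lost in 5 of 15). Other genes of this cluster, namely crygm2d1, crygm2d2, crygm2d3, crygm2d7, crygm2d12, crygm2d13, crygm2d16 and crygm2d20, are on the lens list and were not called. The call of crygm2d11, whose groups overlapped, was among those lost without TCDD replicate 15, and reads of these near-identical copies may be split or lost.

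Signalling ligands and early-response genes rose in small numbers. Of 98 genes of Fgf, Bmp, Tgfb and Wnt signalling, 5 rose and none fell. Apart from fgf7 these were BMP4 (ENSDARG00000019995), a patterning ligand, by 0.42 ± 0.08, adjusted p = 0.00351, the receptor gene FGFR1 (ENSDARG00000011027) by 0.25 ± 0.05, adjusted p = 0.0151, lost in 3 of 15, the protease BMP1 (ENSDARG00000028071), which processes procollagen, by 0.28 ± 0.06, adjusted p = 0.02, lost in 6 of 15, and RSPO3 (ENSDARG00000070081), an amplifier of Wnt signals, by 0.38 ± 0.09, adjusted p = 0.0437, lost in 10 of 15. Leaving out carrier replicate 11 or TCDD replicate 13 or 16 gave 2 rises, and leaving out carrier replicates 9 or 10 or TCDD replicate 14 gave 3. Of 40 immediate early genes 3 rose and 1 fell. CCN2 (ENSDARG00000042934), a secreted matrix-associated factor, measured 112, 118, 110.1 and 122 CPM and 173, 177, 131 and 189.5 CPM (0.54 ± 0.08, adjusted p = 0.00189), and its paralog ccn2b (ENSDARG00000104292), singled out after its values were seen, measured 21.1, 23.4, 17.96 and 19.5 CPM and 54.4, 44.7, 42.1 and 45.9 CPM (1.19 ± 0.09, adjusted p = 3.29e-08). Both rose in all 4 TCDD libraries and kept their calls in every alternative. ier2a and DUSP6, a phosphatase that limits ERK signalling, rose by 0.45 and 0.22 (calls lost in 2 and 8 of 15), and JUN fell by 0.22 (lost in 7); the JUN call held only without TCDD replicate 15 among the libraries left out, and 1 rise was left without carrier replicate 11 or TCDD replicate 16.

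Heart and vessel genes were called in both directions, set here beside 0.815% higher and 0.361% lower over all tested genes. Of 36 heart chamber genes 2 fell and 1 rose, with 26 negative and a median of -0.11. nppa (ENSDARG00000052960), the atrial natriuretic peptide gene, measured 3.26, 2.996, 3.24 and 2.47 CPM and 1.65, 1.72, 1.57 and 1.13 CPM (-0.97 ± 0.18, adjusted p = 0.00546), and FHL5 (ENSDARG00000014805) 5.63, 2.79, 4.72 and 4.39 CPM and 1.94, 1.78, 2.15 and 1.90 CPM (-1.18 ± 0.27, adjusted p = 0.0433, lost in 8 of 15). The groups were apart in both, but without any of 7 of the 8 libraries, all but carrier replicate 10, only 1 fall was called. klf2b (ENSDARG00000040432), a transcription factor induced by blood flow, is on both the heart list and the list of vascular endothelium and rose from 27.3, 24.1, 22.8 and 26.1 CPM to 47.7, 49.5, 41.2 and 63.8 CPM (1.01 ± 0.11, adjusted p = 0.000213). Of 46 endothelial genes 2 rose and 1 fell, with 1 rise left without carrier replicate 9, 10 or 11 or TCDD replicate 13, 14 or 16. vwf (ENSDARG00000077231), the clotting factor of endothelial cells, rose by 0.93 ± 0.21, adjusted p = 0.027, lost in 6 of 15, and stab2 (ENSDARG00000045748), a scavenger receptor of veins, fell from 15.5, 13.8, 13.8 and 14.4 CPM to 9.33, 9.33, 12.1 and 10.1 CPM (-0.49 ± 0.09, adjusted p = 0.00329). APLNR (ENSDARG00000004447), the apelin receptor, fell, at -0.84 ± 0.16, adjusted p = 0.00584.

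Several secreted and vessel-related genes were singled out after their values were seen. edn1 (ENSDARG00000036912), the vasoconstrictor endothelin, measured 3.26, 3.84, 2.64 and 3.84 CPM and 7.40, 6.00, 4.71 and 6.85 CPM (0.87 ± 0.14, adjusted p = 0.00129). The 2 genes listed as ADM, which encode adrenomedullin peptides, rose by 0.81 ± 0.11, adjusted p = 0.000104 (ENSDARG00000069027) and by 0.75 ± 0.13, adjusted p = 0.0022 (ENSDARG00000015263). In these 3 genes no TCDD library overlapped the carrier libraries and no alternative lost the call. EGLN1 (ENSDARG00000038996), an oxygen sensor that is induced by hypoxia, rose by 0.78 ± 0.19, adjusted p = 0.0483, lost in 9 of 15. The forkhead genes foxf2a (ENSDARG00000017195) and foxg1d (ENSDARG00000070053) rose by 0.85 ± 0.09, adjusted p = 1.87e-06 and by 0.99 ± 0.10, adjusted p = 1.79e-06. Matrix and matrix-associated genes with rises were LAMB1 (ENSDARG00000045524, 0.79), THBS3 (ENSDARG00000012060, 0.67), OGN (ENSDARG00000044132, 0.82, lost in 1 of 15), ASPN (0.57, lost in 4 of 15), TNC (ENSDARG00000078362, 0.29) and THBS1 (ENSDARG00000010785, 0.28), each as a log2 fold change. plin6 (ENSDARG00000076844), a lipid droplet protein gene, measured 5.82, 6.10, 6.43 and 6.09 CPM and 9.96, 10.9, 11.7 and 11.13 CPM (0.84 ± 0.09, adjusted p = 5.2e-06), and here replicate 15 was the highest of the TCDD libraries.

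The remaining named falls and rises were scattered over other lists. HSD11B2 (ENSDARG00000001975), which inactivates cortisol, measured 29.9, 28.8, 27.4 and 29.5 CPM and 22.1, 17.8, 18.02 and 17.98 CPM (-0.61 ± 0.07, adjusted p = 2.81e-05), and the sterol exporter ABCA1 (ENSDARG00000074635) rose by 0.29 ± 0.05, adjusted p = 0.00301, the 2 calls among 37 sterol and steroid genes. The keratin gene krt94 (ENSDARG00000044975) fell from 37.4, 35.6, 41.4 and 37.4 CPM to 24.0, 23.1, 26.7 and 19.3 CPM (-0.70 ± 0.10, adjusted p = 0.000985), while krt99, cdh1 and cldn7b rose by 0.95, 0.23 and 0.26 (calls lost in 8, 7 and 9 of 15), together 3 rises and 1 fall of 55 epidermal genes. The list held 3 rises also without TCDD replicate 15, though krt99 was not among them, 1 without carrier replicate 12 or TCDD replicate 16 and none without any other library. alas2 (ENSDARG00000038643), the heme synthesis enzyme of red cells, was the only call of 34 erythroid genes, with 59.7, 58.8, 57.7 and 66.2 CPM and 40.3, 45.8, 53.5 and 50 CPM (-0.35 ± 0.07, adjusted p = 0.00617). The prostaglandin D synthase gene ptgdsb.1 (ENSDARG00000027088) was the only call of 25 genes of its list and rose by 0.98 ± 0.19, adjusted p = 0.0354, lost in 7 of 15, each loss with a library left out. SLC6A4 (ENSDARG00000061165), the serotonin transporter, rose by 0.62 ± 0.12, adjusted p = 0.0134, lost in 5 of 15, as the only call of 78 neuronal genes, of which 69 were positive with a median of 0.06. Over all tested genes 1.18% were called, so 1 call of 78 is near that share. The neuronal median was 0.02 without carrier replicate 12, and the library medians were 0.10, 0.06, -0.03 and -0.12 with carrier and 0.11, 0.03, 0.04 and 0.09 with TCDD. Pigment cell genes gave 2 rises of 40, aox5 (0.48) and BCO1, with aox5 alone where 1 of 6 libraries was left out, and hatching gland genes 1 of 8. Of the 15 largest falls, clcn2c (-1.01, lost in 6 of 15), RNF180 (-0.75, lost in 3 of 15) and HSPB3 (-0.62, lost in 7 of 15) belong to no list above.

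On 10 of the 36 lists no gene was called. With 1.18% of all tested genes called, lists of 8 to 77 genes would hold few calls or none at that share. Liver genes had the lowest median of these, -0.23, with 36 of 42 negative. Their library medians were 0.04, -0.05, 0.14 and -0.13 with carrier and 0.09, -0.24, -0.27 and -0.40 with TCDD, so that TCDD replicate 13 lay among the carrier libraries, and the fold change median was -0.35 without replicate 13 and -0.12 without replicate 16. Genes of oxidative phosphorylation (-0.05, 57 of 65 negative), cytosolic ribosomal proteins (-0.03, 64 of 77 negative), skeletal muscle (-0.05, 47 of 62 negative) and heat shock and the unfolded protein response (-0.05, 33 of 50 negative) had medians just below 0. Clock genes (0.08, 32 of 41 positive), glia and myelin genes (0.04, 19 of 30 positive), exocrine pancreas and gut enzymes (0.10, 14 of 24 positive) and germ line genes (0.03, 4 of 8 positive) had medians just above 0. The pancreas median changed sign with the libraries used, from -0.06 to 0.16 with 1 left out. So did those of germ line genes, from -0.07 to 0.16, and of cytosolic ribosomal proteins, from -0.07 to 0.01.

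**Figure D4:**
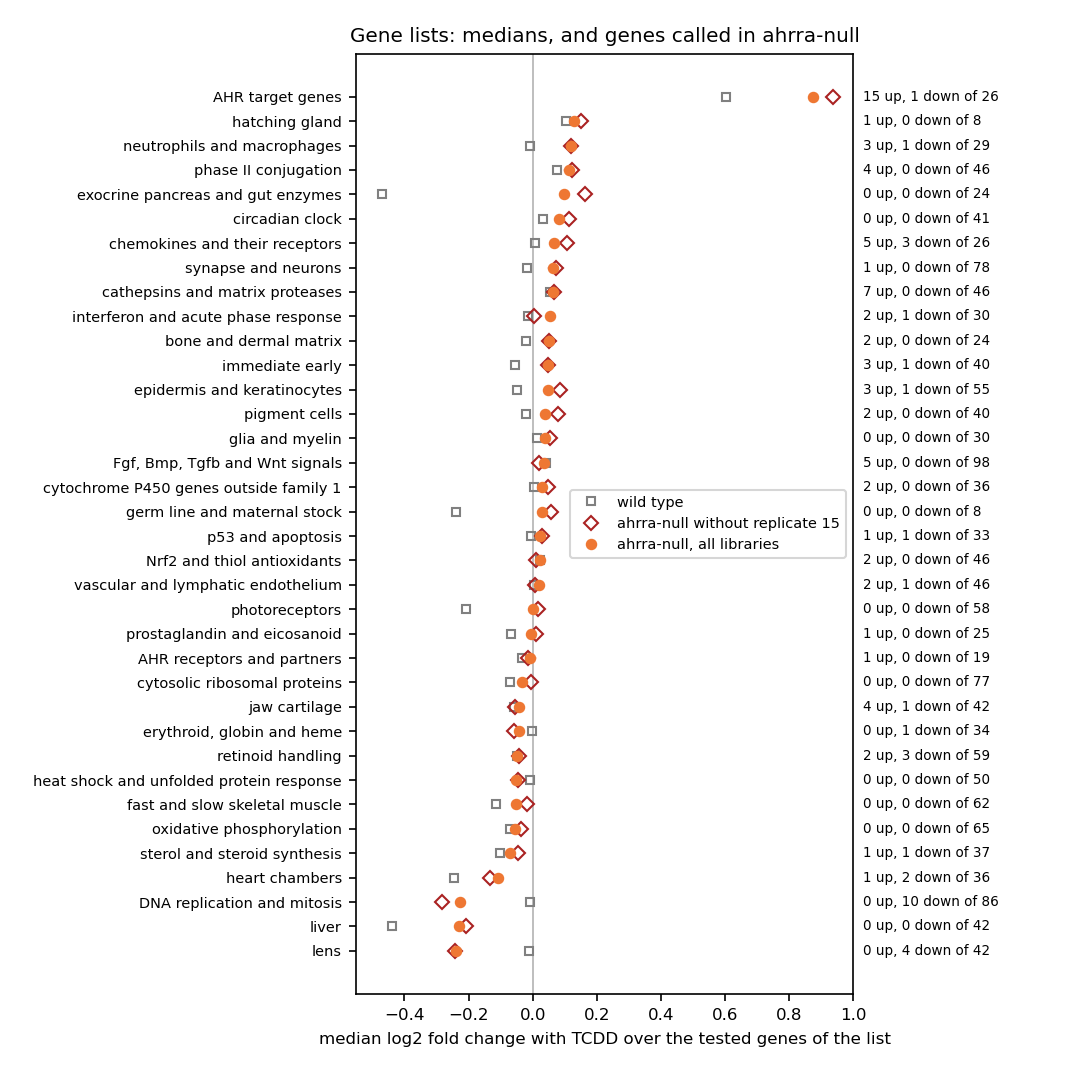
Median log2 fold change with TCDD over the tested genes of each of 36 lists, for ahrra-null (filled circles), ahrra-null without replicate 15 (diamonds) and wild type (squares), with the ahrra-null genes called up and down at the right. AHR targets stand at 0.88, while replication, liver and lens genes stand at -0.23, -0.23 and -0.24, and the median over all genes is 0.00.

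The lines shared much of the response. In wild-type embryos TCDD changed 185 genes (0.856% of those tested), 104 higher and 81 lower (1804 genes, 8.35%, had an unadjusted p under 0.05), and 93 genes were called in both lines, all in the same direction, 70 higher and 23 lower. These are 36.6% of the ahrra-null calls and 50.3% of the wild-type calls. Of the 176 genes raised in ahrra-null embryos 164 had a positive fold change in wild type, and of the 78 lowered 69 had a negative one. The median log2 fold change of the ahrra-null rises was 0.58 in that line and 0.38 in wild type, and of the falls -0.38 and -0.17. Taken from the wild-type side the order turned round, with 0.69 in wild type and 0.57 in ahrra-null for wild-type rises and -0.65 and -0.30 for wild-type falls, so each line's calls were larger where they were called. The replication list, at -0.23 in ahrra-null embryos, had a median of -0.01 and no call in wild type, and 28 of its 86 genes had an unadjusted interaction p under 0.05, as against 5.17% of all genes. The lens list, at -0.24, had a median of -0.01 and 1 lower call in wild type, and 13 of its 42 genes had such an interaction p. The replication and lens lists were not alone in this. Of 40 immediate early genes 11 had such an interaction p, with a median of 0.05 in ahrra-null and -0.06 in wild type. So did 7 of 34 erythroid genes and 3 of 8 genes on each of the germ line and hatching gland lists. Genes of a list share the same libraries and can shift together in them. The genes counted, here and in the lists that follow, are thus not independent, and no list was tested as a whole. Other lists had lower medians in wild type, given here with their genes at an unadjusted interaction p under 0.05. The liver list had a median of -0.44 and 3 lower calls there against -0.23 and none in ahrra-null (4 of 42 genes). The heart chamber list had -0.25 and 7 against -0.11 and 2 (7 of 36). Exocrine pancreas and gut enzymes had -0.47 and 2 against 0.10 and none (5 of 24). For photoreceptors, at -0.21 and 2 against 0.00 and none, the 1 of 58 lay below the share over all genes. The wild-type values rest on 3 libraries a group, and no wild-type list median was taken with a library left out. Of all replicate pairs, wild-type carrier replicates 2 and 4 differed most (chi-square over its degrees of freedom 18.4).

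**Figure D5:**
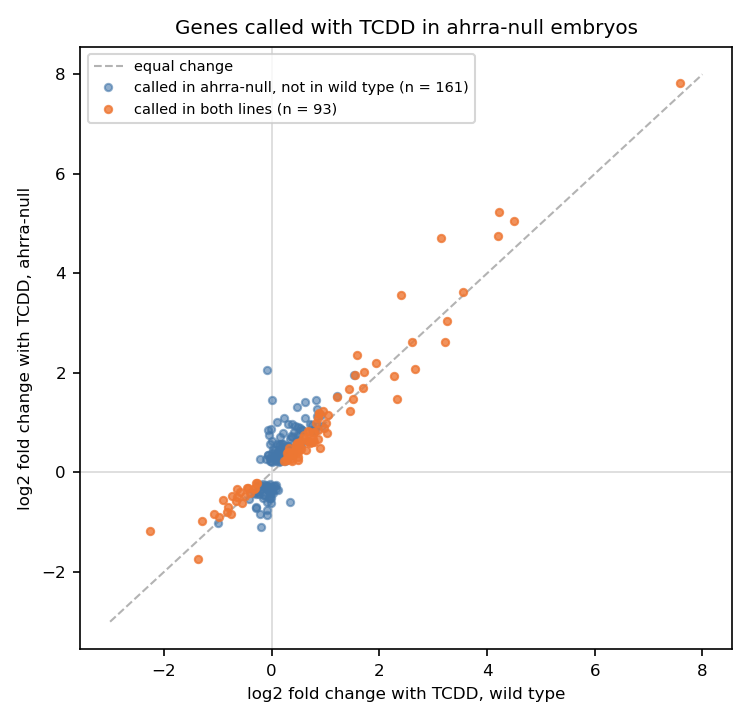
Log2 fold change with TCDD in ahrra-null embryos (vertical axis) against that in wild type (horizontal axis) for the 254 genes called in ahrra-null. Orange marks the 93 genes called in both lines, blue the 161 called in ahrra-null and not in wild type, and the dashed line equal change. Among the largest changes, CYP1A1 (7.83 against 7.59) lies near the dashed line. Above it lie ahrra (5.23 against 4.23), cxcl19 (4.71 against 3.15) and ctsl.1 (3.57 against 2.41), and below it ahrrb (2.08 against 2.67). Of the 254 genes, 233 have the same sign in both lines.

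No gene passed the test of the difference between the lines themselves. The interaction of genotype and TCDD gave 0 calls by edgeR's quasi-likelihood test (0.0%), with a smallest adjusted p of 0.277 and 1117 genes (5.17%) at an unadjusted p under 0.05. DESeq2 called 8 genes and limma voom 2. Without TCDD replicate 15 edgeR called 2, klf2b, with an interaction of 0.99 on the log2 scale (adjusted p = 0.0237), and cyp1c1, with 0.73 (adjusted p = 0.0175). Over the 20 alternatives the interaction's adjusted p ran from 0.00062 to 0.9998 in klf2b and from 0.0175 to 0.9999 in cyp1c1. Leaving out wild-type carrier replicate 4 gave 10 calls, and leaving out carrier replicate 12 or TCDD replicate 16 of the ahrra-null line gave 1 each. In CYP1A1 the wild-type log2 fold change was 7.59 ± 0.41, adjusted p = 7.76e-06 and the interaction 0.25 ± 0.53, adjusted p = 0.986. For ahrra the wild-type change was 4.23 ± 0.50, adjusted p = 0.00234 and the interaction 1.00 ± 0.84, adjusted p = 0.973. Neither difference passed the test. In the fit of all libraries, 0 of the 26 genes on the AHR target list had an unadjusted interaction p under 0.05. In wild type 13 of them rose and 1 fell, with a median of 0.60 against 0.88 in ahrra-null.

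The genes with the smallest interaction p among the ahrra-null calls differed in where the lines parted. klf2b measured 38.3, 44.6 and 43.8 CPM in wild-type carrier libraries (replicates 2, 3 and 4) and 47.2, 48.6 and 40.5 CPM in wild-type TCDD libraries (replicates 6, 7 and 8), so that its ahrra-null TCDD levels of 47.7, 49.5, 41.2 and 63.8 CPM reached or passed the wild-type range while its ahrra-null carrier levels lay below (interaction 0.90 ± 0.17, adjusted p = 0.373). edn1 parted under TCDD instead, with 3.79, 3.37 and 3.73 CPM and 3.69, 3.26 and 3.85 CPM in wild type (interaction 0.88 ± 0.23, adjusted p = 0.809). alas2 measured 30.4, 29.4 and 28.0 CPM and 31.0, 32.5 and 31.5 CPM in wild type, under the ahrra-null levels in every library (interaction -0.47 ± 0.11, adjusted p = 0.695). mb (ENSDARG00000031952), myoglobin, fell in both lines, by 0.33 in ahrra-null and 0.65 in wild type (interaction 0.31 ± 0.08, adjusted p = 0.809). TXNIP (ENSDARG00000036107), a regulator of thioredoxin, and serpina10a (ENSDARG00000005924), which encodes a plasma protease inhibitor, rose in ahrra-null embryos by 0.35 ± 0.07, adjusted p = 0.00959 and by 0.26 ± 0.05, adjusted p = 0.0064, against -0.07 ± 0.08, adjusted p = 0.91 and -0.11 ± 0.06, adjusted p = 0.665 in wild type. DESeq2 called the interaction of serpina10a (adjusted p = 0.0326, the smallest of 20 alternatives, which reached 0.864). The linker histone gene histh1l1 (ENSDARG00000035519) had an ahrra-null change of 0.27 ± 0.06, adjusted p = 0.0221, lost in 5 of 15 and a wild-type change of -0.22 ± 0.07, adjusted p = 0.222, and was called for the interaction by both DESeq2 (adjusted p = 0.00284) and limma voom (adjusted p = 0.0345) but not by edgeR (adjusted p = 0.277), with a range of 0.00284 to 0.864 over the 20 alternatives. ENSDARG00000086947, a gene with no symbol in the table used, measured 0.284, 0.210, 0.275 and 0.595 CPM and 1.37, 1.44, 1.57 and 1.55 CPM in ahrra-null embryos and 0.746, 0.765 and 0.918 CPM and 0.679, 0.816 and 0.803 CPM in wild type (interaction 2.16 ± 0.41, adjusted p = 0.277). Its interaction was called by limma voom (adjusted p = 0.0389, the smallest of 20 alternatives, which reached 0.826). SERPINE3 and crygm2d15 fell in ahrra-null embryos by 0.59 (call lost in 6 of 15) and 0.26 and had wild-type values of 0.35 ± 0.17, adjusted p = 0.625 and 0.08 ± 0.06, adjusted p = 0.822.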

How the data were processed

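Total RNA was extracted from zebrafish embryos at 72 hpf and made into unstranded Illumina TruSeq libraries, per the labels' protocols. The authors deposited raw read counts for each Ensembl gene ID in whole numbers. The submitters' processing notes name the build GRCz10 and the tools TopHat2, HTSeq, SAMtools, cutadapt and edgeR, but their versions, the annotation release and how multiply mapped reads were handled are not stated. Without strand, overlapping and antisense genes cannot be told apart, and near-identical paralogs may lose or split reads.

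Groups and replicate numbers came from the sample titles. Each file listed 32105 genes, and 26269 IDs matched a table of IDs and symbols, whose capitals were kept. edgeR's filterByExpr at a minimum count of 10 kept 21606 genes with 99.9% of counts and set aside 10499. Counts were scaled by TMM and fitted over all 14 libraries in 4 groups with robust quasi-likelihood dispersion (common biological coefficient of variation 7.19%). Contrasts were TCDD against carrier in each line and their interaction, with Benjamini-Hochberg adjustment over all tested genes. The SE, an approximation, was taken as the absolute log2 fold change over the root of F, and fold changes use a prior count of 0.125. CPM use TMM-scaled library sizes. The fit was tested on simulated data. Software was edgeR 4.0.16, DESeq2 1.42.0 and limma 3.58.1 in R 4.3.3.

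The 36 gene lists were drawn up from textbook roles, and 1525 of their 1606 symbols matched as 1636 IDs, 187 symbols through synonyms and 183 by the name without its paralog suffix. Such members may be paralogs of the gene meant. The comparison, the lists and the rule for named genes were chosen with earlier results of these data known. The rule names the 15 largest rises and falls (called with and without replicate 15, no overlap, mean log2 CPM of at least 0), called list members, AHR receptors, repressors and targets, the 10 calls with the smallest interaction p, and up to 5 genes gained or lost with replicate 15. Alternatives were DESeq2, limma voom with quality weights, scaling by median ratios or the upper quartile, no filter, 1 CPM in 3 libraries, only the libraries of a contrast and each library left out in turn. A 2-fold threshold was applied only to the counts of calls and is not among the alternatives in which a gene could lose its call. Promoter motifs were not analysed here.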

Additional observations from a re-analysis of the deposited data

Results flagged for a closer look

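The rule-named genes and those singled out numbered 174, and only a part of them was examined here. In that part, 114 groups of 4 ahrra-null libraries were searched for a library far from the other 3. This used Dixon's ratio at its 95% critical value. Chance flags about 1 in 20 groups. There were 12 flags, and 7 of them were in TCDD replicate 15. That library stood below the other 3 TCDD libraries in CYP1A1 at 465 CPM (others 1057 to 1103), cyp1c1 at 216 CPM (others 387 to 421), cyp1c2 at 39.9 CPM (others 84.6 to 92.4), CYP1B1 at 17.2 CPM (others 37.9 to 38.5), fgf7 at 18.1 CPM (others 38.4 to 40.8) and ugt1b5 at 39.5 CPM (others 54.2 to 56.5). It stood above them in cxcl12b, a gene that fell, at 35.3 CPM (others 25.4 to 26.4). All 7 lay between the carrier libraries and the other TCDD libraries. These genes share the library, so the flags are not independent of each other.

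The other 5 flags were spread over 4 libraries. HSD11B2 was higher in TCDD replicate 13, at 22.1 CPM against 17.8 to 18.02. MFAP4 (ENSDARG00000088745) was lower in TCDD replicate 14, at 0.833 CPM against 1.34 to 1.42. Carrier replicate 12 was high in BFSP1, at 13.2 CPM against 9.997 to 10.5, and in RNF180, at 4.03 CPM against 3.31 to 3.42. anpepla was low in carrier replicate 11, at 0.769 CPM against 1.09 to 1.104.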

How the results depend on the processing

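The count of genes changed by TCDD in ahrra-null embryos, 254, was 256 with median-of-ratios and 255 with upper-quartile scaling, 242 with only these 8 libraries, 303 with no filter, 261 with a filter of 1 CPM, 327 with DESeq2 (243 shared) and 368 with limma voom (247 shared). It was 44 with a 2-fold threshold and 141 to 374 with 1 library left out. The wild-type count of 185 was 53 with a 2-fold threshold, 351 with limma voom and 82 to 388 with 1 library left out. The interaction gave 0 calls in the fit reported, 8 with DESeq2, 2 with limma voom and 0 to 10 with 1 library left out. With 1 library left out, list medians ranged from -0.066 to 0.16 for germ line genes, -0.054 to -0.022 for heat shock, -0.27 to -0.15 for lens, 0.014 to 0.14 for neutrophils and macrophages, -0.011 to 0.054 for p53 and apoptosis, -0.066 to 0.038 for prostaglandin genes, 0.023 to 0.087 for neurons and -0.012 to 0.032 for endothelium. No called gene that is named reversed direction, 77 of 157 kept their call in every alternative and 10 lost it in 8 or more of 15. The largest rises and falls among them were named only where called without replicate 15, which is 1 of the alternatives. The cause of these losses was not tested. No paired analysis was possible because the groups share no replicate numbers. Fold changes of genes near 1 CPM rest on few reads and have wide errors.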
